A study of Sus scrofa with 4 samples.

Results

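The 9 genes described here build the tight junctions of epithelia: the claudins CLDN1, CLDN4, CLDN7, CLDN8 and CLDN10, occludin (OCLN), the junctional adhesion molecule F11R, and the scaffold genes TJP1 and TJP3. They were taken by name from a table of 29837 named pig genes, and all 9 were measured and passed the filter on low counts, which left 15980 genes. RNA was sequenced from the skin epidermis of 2 juvenile pigs, 88R and 95R, after fluorescence activated cell sorting into cells with high GFP (LGR5-high) and cells without GFP (LGR5-negative), with 1 library for each population and pig. Both populations of both pigs came from a knock-in line in which 1 LGR5 allele carries H2B-GFP in exon 1. The line was made by nuclear transfer from clonal edited fibroblasts and then bred, and whether 88R and 95R were founders or progeny is not given in the sources used here. The reporter is a histone fused to GFP, a stable protein that is diluted as cells divide.

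Tight junctions seal the space between neighbouring epithelial cells. Claudins span the membrane and set which ions and solutes may pass, occludin and the junctional adhesion molecules lie beside them, and the TJP (ZO) scaffolds tie them to the actin cytoskeleton through their PDZ domains. In skin the functional seal lies in the granular layer of the epidermis, above the proliferating cells, and mice without Cldn1 lose water through the skin. Hair follicles also carry tight junctions, and in mice LGR5 marks follicle cells of the lower bulge and outer root sheath.

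The 4 libraries held between 30696803 and 32463362 counts, so the floor used here, 3 counts, stood at 0.0872 to 0.105 CPM (counts in each 1e+06 counts of a library, with TMM scaling between libraries). LGR5 itself was counted 4551 and 6224 times in LGR5-high, and 36 and 109 times in LGR5-negative. Of 4 keratinocyte markers in the table, KRT5 (23651 to 29543 CPM), TP63 (556 to 658 CPM) and KRT15 were not called, and COL17A1 was lower in LGR5-high with a log2 fold change of -0.47 (edgeR adjusted p = 0.00960). The markers of the suprabasal and granular epidermis differed: 7 of 9 tested were lower in LGR5-high and none was higher, beside 22.0% and 22.7% of all tested genes. IVL and LOR were not called. The summed level of these markers was 6508 to 6978 CPM in LGR5-high and 61132 to 68945 CPM in LGR5-negative. KRT1 and KRT10 gave most of it, with means of 2460 and 2663 CPM in LGR5-high and 28995 and 28803 CPM in LGR5-negative. Since the samples are bulk RNA, fewer cells of a type and less RNA per cell cannot be told apart, and the part of this difference in the results below was not tested.

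To ask how the junction genes differed between the populations, raw counts were tested by the quasi-likelihood method of edgeR. A gene was called at a Benjamini-Hochberg adjusted p-value under 0.05 over all 15980 genes. The claudins divided. CLDN8 and CLDN10 were higher in LGR5-high, by 10.3-fold and 6.21-fold, while CLDN1, CLDN4 and CLDN7 were lower, as were OCLN, F11R, TJP1 and TJP3. Thus 2 of the 9 genes were higher and 7 were lower, beside 22.7% and 22.0% of all tested genes, or 44.7% in either direction. The 9 genes had a median log2 fold change of -0.56, against 0.02 for all tested genes. The populations did not overlap for any of the 9 genes, which was also true of 76.6% of all tested genes, with LGR5-high above in 39.2% and below in 37.4%. With the pig as a term in the fit the same 9 calls were made, while the background rose to 55.7% of all genes, 28.5% higher and 27.2% lower.

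**Figure D1:**
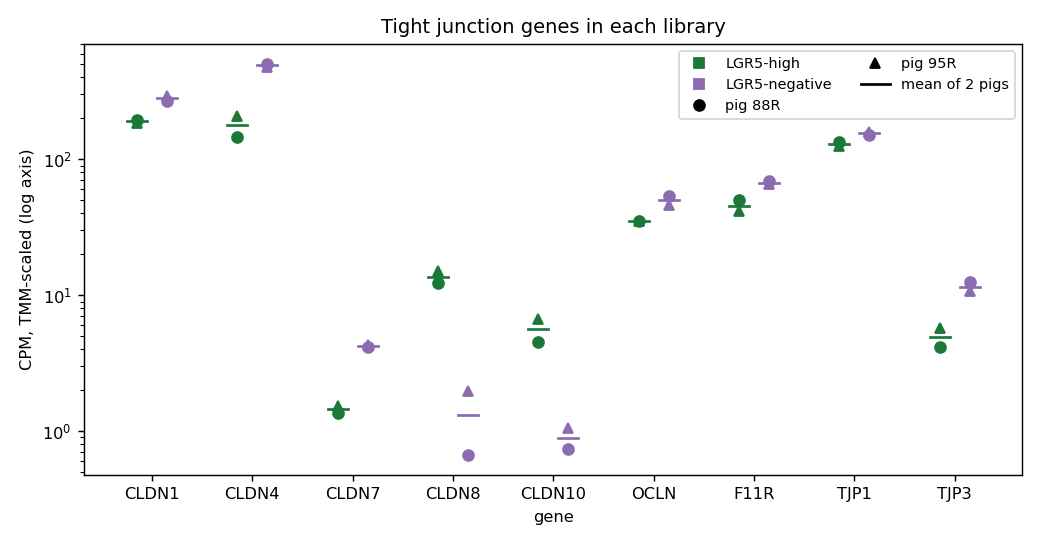
Level of each tight junction gene (CPM scaled by TMM, log axis) in the 2 LGR5-high (green) and 2 LGR5-negative (purple) libraries. Circles are pig 88R, triangles pig 95R and bars the mean of the 2 pigs, and CLDN8 and CLDN10 alone of these 9 genes lie higher in LGR5-high.

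CLDN8, known from the collecting duct of the kidney as a barrier-forming claudin, had the largest change of the 9 genes. It stood at 12.4 CPM in pig 88R and 15.1 CPM in pig 95R in LGR5-high, and at 0.666 and 1.98 CPM in LGR5-negative. Below, paired values are given for pig 88R first and pig 95R second. Both LGR5-high libraries were well above both LGR5-negative libraries, which held only 19 and 60 counts. The log2 fold change was 3.36 (SE 0.456, edgeR adjusted p = 0.00259), and the pigs taken singly gave 4.09 and 2.89. The size rested on the LGR5-negative libraries: without that of pig 95R it was 4.35, and without that of pig 88R it was 2.78, and CLDN8 was called in both cases.

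CLDN10, which forms ion-selective pores in kidney and sweat gland, was the other claudin of the 9 that was higher. Its values were 4.54 and 6.69 CPM in LGR5-high, and 0.737 and 1.06 CPM in LGR5-negative. Both LGR5-high libraries were above both LGR5-negative libraries. The log2 fold change was 2.64 (SE 0.335, edgeR adjusted p = 0.00204), and it was close to equal in the pigs, with 2.52 and 2.59. Transcript forms of CLDN10 with different first exons are known, and counts per gene do not tell them apart.

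CLDN4, a claudin of many barrier epithelia, was lower in LGR5-high, with 5037 counts or more in each library. It had 146 and 209 CPM in LGR5-high, and 506 and 481 CPM in LGR5-negative. The LGR5-high libraries differed from each other by more than the LGR5-negative libraries did, but both lay far below them. The log2 fold change was -1.48 (SE 0.172, edgeR adjusted p = 0.00146), and the pigs gave -1.79 and -1.20.

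CLDN1, the claudin that the epidermal water barrier depends on, showed a smaller difference. It had 196 and 184 CPM in LGR5-high and 269.8 and 295 CPM in LGR5-negative. The populations did not overlap. The LGR5-negative level was 1.48-fold the LGR5-high level, with a log2 fold change of -0.57 (SE 0.0862, edgeR adjusted p = 0.00387). CLDN1 thus remained at 6098 counts or more in each LGR5-high library.

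CLDN7, found along the lateral membrane of many epithelia and a binding partner of EPCAM, was measured on few reads, between 47 and 130 counts a library. It had 1.37 and 1.54 CPM in LGR5-high and 4.17 and 4.30 CPM in LGR5-negative, so that the libraries of each population lay close together. Its log2 fold change of -1.54 (SE 0.242, edgeR adjusted p = 0.00443) had a 95% interval from -2.14 to -0.94.

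These differences changed the make-up of the claudin reads within a library, a measure that does not depend on the scaling between libraries. All claudin genes in the table summed to 13367 and 14610 counts in LGR5-high, and to 23568 and 24922 counts in LGR5-negative. CLDN4 gave 37.7% and 47.2% of them in LGR5-high and 61.2% and 58.4% in LGR5-negative. CLDN1 went the other way, with 50.5% and 41.7% in LGR5-high and 32.6% and 35.7% in LGR5-negative. The count ratio of CLDN4 to CLDN1 was accordingly 0.747 and 1.13 in LGR5-high against 1.88 and 1.63 in LGR5-negative. CLDN8 gave 3.18% and 3.42% of claudin counts in LGR5-high but 0.0806% and 0.241% in LGR5-negative, and CLDN10 gave 1.17% and 1.51% but 0.0891% and 0.128%. These shares are shares of reads, not of molecules, because no transcript lengths were used. An exact permutation test of 2 against 2 libraries cannot go below a two-sided p of 0.333, so the shares and ratios are given without a test.

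**Figure D2:**
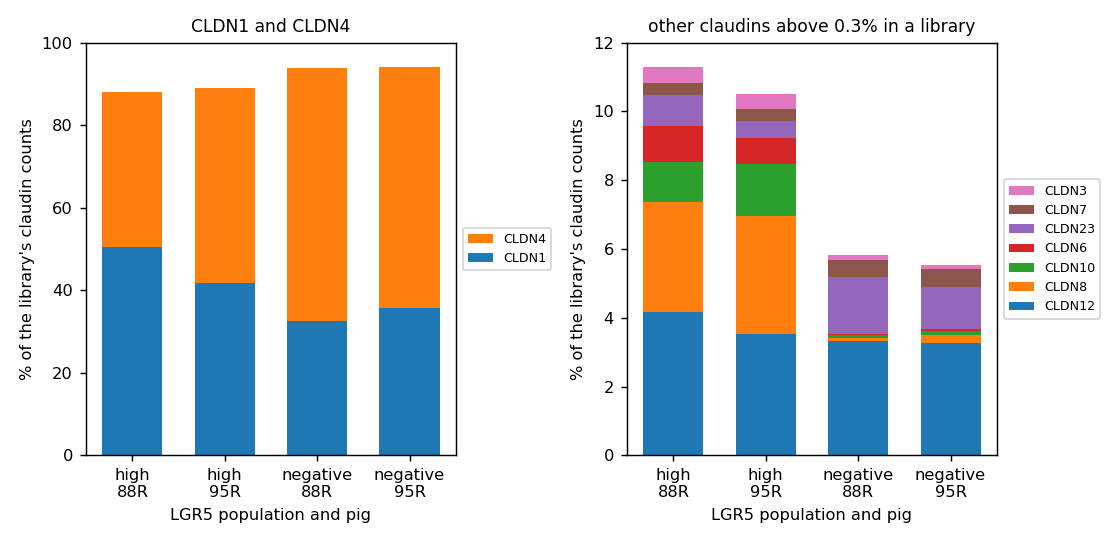
Share of each library's claudin counts (percent, not corrected for length) given by CLDN1 and CLDN4 (left) and by the other claudins above 0.3% in at least 1 library (right, own scale). CLDN1 and CLDN4 together give 88.1% and 89.0% of claudin counts in LGR5-high and 93.9% and 94.1% in LGR5-negative.

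OCLN, which encodes the membrane protein occludin, had 35.4 and 35.0 CPM in LGR5-high and 53.9 and 46.1 CPM in LGR5-negative. The 2 LGR5-high libraries were nearly equal and both were under the LGR5-negative libraries. Its log2 fold change was -0.51 (SE 0.110, edgeR adjusted p = 0.0136). F11R, which encodes JAM-A, an adhesion molecule that recruits polarity proteins to young junctions, stood at 49.9 and 41.5 CPM in LGR5-high and at 69.4 and 65.6 CPM in LGR5-negative. Its log2 fold change was -0.56 (edgeR adjusted p = 0.0113), and it was -0.48 and -0.66 in the single pigs. The populations did not overlap for either gene. The adjusted p of OCLN rose to 0.0622 without the LGR5-high library of pig 88R and to 0.0760 without that of pig 95R. For F11R it was 0.0540 without the LGR5-high library of pig 95R.

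The scaffold genes differed in size of change. TJP1, which encodes ZO-1, had 134 and 126 CPM in LGR5-high and 152 and 159.7 CPM in LGR5-negative, a difference of 1.20-fold. Its log2 fold change was -0.26 (95% interval -0.46 to -0.06, edgeR adjusted p = 0.0424), the smallest of the 9. The call did not hold when any 1 of the 4 libraries was left out, with adjusted p-values from edgeR of 0.0874 and 0.203 without the LGR5-high library of pig 88R or 95R and of 0.0766 and 0.158 without the LGR5-negative one. TJP3, which encodes ZO-3, a scaffold of epithelia, had 4.16 and 5.72 CPM in LGR5-high and 12.5 and 10.7 CPM in LGR5-negative. Its log2 fold change was -1.23 (SE 0.216, edgeR adjusted p = 0.00648), and pig 88R gave -1.57 while pig 95R gave -0.90. Within a library, the count ratio of TJP3 to TJP1 was 0.0311 and 0.0453 in LGR5-high and 0.0821 and 0.0671 in LGR5-negative, without overlap. In RefSeq the spans of TJP1 and TJP3 overlap those of SEH1L and APBA3, and the strand setting of the counting is not given in the sources used here. APBA3 had a log2 fold change of 0.0051. The part of reads from SEH1L or APBA3 in the counts of TJP1 and TJP3 was not tested.

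**Figure D3:**
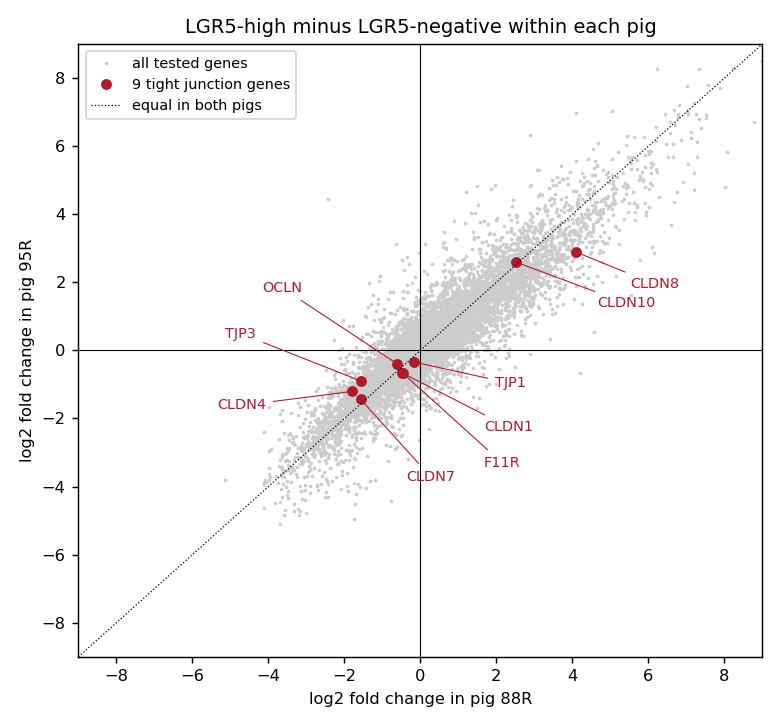
Log2 fold change, LGR5-high minus LGR5-negative, within pig 88R (x axis) and within pig 95R (y axis) for all 15980 tested genes (grey) and the 9 tight junction genes (red), with a dotted line where both pigs are equal. All 9 genes had the same direction in both pigs, which follows where the populations do not overlap, as for 76.6% of all tested genes.

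The direction of the smaller changes depended on the scaling less than their calls did. Over all tested genes the median log2 fold change was 0.02 by TMM normalization, 0.11 by upper quartile scaling and 0.24 by library size only. Under the last, 5473 genes were called higher and 2328 lower, so that 70.2% of called genes were higher in place of 50.9%. Under library size only, TJP1 had a log2 fold change of -0.04, OCLN -0.28 and F11R -0.34, and these 3 genes were no longer called. Relative to the median of all tested genes, TJP1 was at -0.28 with TMM and -0.27 with library size only. All 9 genes had the same sign under every one of the 4 scalings, and CLDN1, CLDN4, CLDN7, CLDN8, CLDN10 and TJP3 were called under each.

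**Figure D4:**
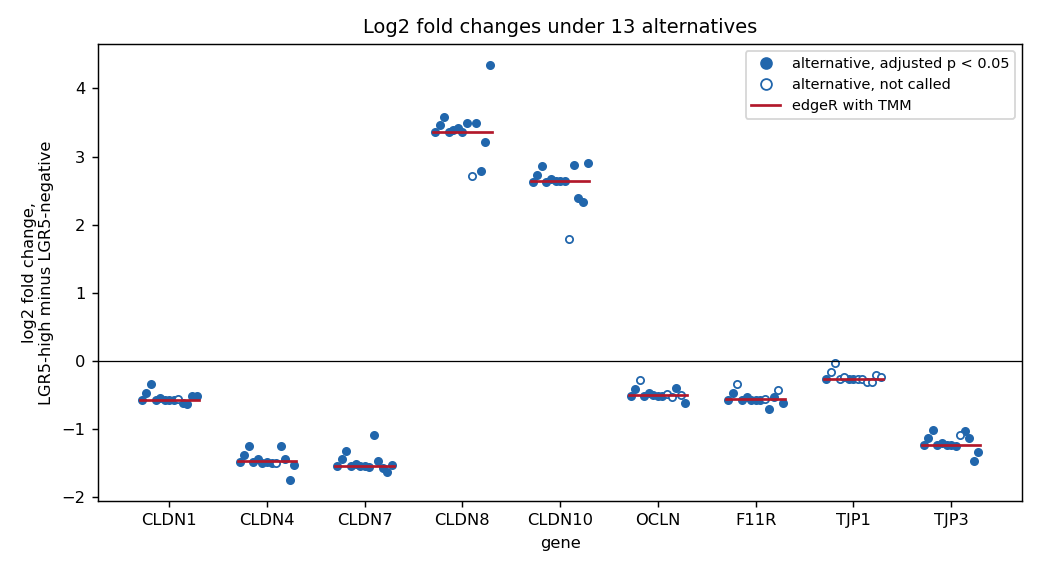
Log2 fold change of each tight junction gene with edgeR and TMM (red line) and under 13 alternatives of scaling, filter, test, pairing and left-out library (points, filled where the adjusted p-value was under 0.05). No point crosses 0, and TJP1 was called under 3 of the 13 alternatives.

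The remaining claudins were read to place these 5 among the family. Of 17 other claudin genes in the table, 8 passed the filter on low counts. CLDN6 was higher and CLDN5, CLDN12 and CLDN23 were lower in LGR5-high, 4 of 8 where 44.7% of all tested genes were called. Under the filter of at least 10 counts in every library, CLDN6 and CLDN5 were not tested, which left 0 higher and 2 lower. CLDN6, a claudin of embryonic epithelia, was counted 143 and 110 times in LGR5-high and 9 and 14 times in LGR5-negative, with a log2 fold change of 3.25 (SE 0.345, edgeR adjusted p = 0.00108). How reads shared between similar claudins were assigned is not given in the sources used here. CLDN23, a claudin of barrier epithelia, had 3.46 and 2.27 CPM in LGR5-high and 13.5 and 9.99 CPM in LGR5-negative. CLDN12 had a log2 fold change of -0.77. CLDN5, the claudin of blood vessels, had only 4 to 19 counts a library and a log2 fold change of -1.98, and 4 of 5 endothelial markers were lower too, with a summed level of 6.11 to 7.47 CPM in LGR5-high and 20.8 to 20.9 CPM in LGR5-negative. The call of CLDN5 was lost when any 1 library was left out, with adjusted p-values from edgeR of up to 0.149.

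CLDN3, CLDN15, CLDN19 and CLDN20 were measured and not called. CLDN3, a close relative of CLDN4, had a log2 fold change of 0.67 with a 95% interval from -0.11 to 1.45. CLDN19 had 13 and 10 counts in LGR5-high and 0 and 3 in LGR5-negative, with an adjusted p of 0.0612 from edgeR and 0.0199 when the pig was a replicate block, but 0.205 with that block in DESeq2. The other 9 claudins in the table were below the filter with at most 9 counts in any library, and CLDN2 had 0 counts in all 4, which allows a level of up to 0.0872 to 0.105 CPM.

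The other genes of the junction were read in 5 lists with 40 genes, all tested, of which 11 were higher and 13 were lower, beside 22.7% and 22.0% of all tested genes, and their median log2 fold change was -0.08. Among the called genes, the RefSeq spans of LSR, JAM3 and SPINT1 overlap those of the protein-coding genes FAM187B, NCAPD3 and PPP1R14D. The spans of MAGI2, CXADR and SPINT2 overlap non-coding genes or pseudogenes, and some genes that were not called overlap others as well. The part of reads from overlapping genes was not tested. Of 5 genes for proteins of the tricellular contacts, where the corners of cells meet, and their MARVEL relatives, MARVELD2, LSR and ILDR1 were higher, MARVELD3 was lower and ILDR2 was not called. MARVELD2 encodes tricellulin, and had 35.0 and 29.9 CPM in LGR5-high and 22.5 and 22.1 CPM in LGR5-negative. LSR, which recruits tricellulin, had 43.2 and 52.0 CPM in LGR5-high and 26.3 and 30.1 CPM in LGR5-negative, with a log2 fold change of 0.75 (edgeR adjusted p = 0.00666). The calls of MARVELD2, MARVELD3 and ILDR1 were lost in at least 1 fit with a library left out: MARVELD2 without the LGR5-high library of pig 88R (adjusted p = 0.0989 from edgeR), ILDR1 without the LGR5-high library of pig 95R (0.201) or the LGR5-negative library of pig 88R (0.126), and MARVELD3 without either LGR5-high library or the LGR5-negative library of pig 95R (0.0573 to 0.0861).

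Among the 6 other immunoglobulin-like proteins, JAM3 and CXADR were lower and none was higher, beside 22.0% and 22.7% of all tested genes. CXADR, the coxsackievirus and adenovirus receptor, had a log2 fold change of -0.24 (edgeR adjusted p = 0.0462), and JAM3 had 11 to 31 counts a library. Both calls were lost when any 1 library was left out, with adjusted p-values from edgeR of up to 0.196 for CXADR and 0.115 for JAM3. JAM2, not called at an adjusted p of 0.0554, was called with the replicate block in edgeR (0.0319) and not in DESeq2 (0.379).

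Among 12 other proteins of the cytoplasmic plaque, 3 were higher and 4 were lower, where 44.7% of all tested genes were called in either direction. The paralogs cingulin (CGN) and paracingulin (CGNL1), which link junctions to the cytoskeleton, differed in opposite directions. CGN had 542 and 496 counts in LGR5-high and 1331 and 979 counts in LGR5-negative, while CGNL1 had 1240 and 1191 counts against 400 and 402. The log2 fold change was -1.36 for CGN (edgeR adjusted p = 0.00288) and 1.40 for CGNL1 (edgeR adjusted p = 3.58e-04). MAGI2, a multi-PDZ scaffold, had 80 and 71 counts in LGR5-high and 10 and 20 in LGR5-negative, with a log2 fold change of 2.13 (edgeR adjusted p = 0.00768). YBX3, a factor that ZO-1 binds, was lower with -0.53. The angiomotin family was divided as well, with AMOT at a log2 fold change of 1.73 and AMOTL2 at -1.77, and AMOTL1 not called at -0.09. MAGI1, not called at an adjusted p of 0.0695, was called by both edgeR (0.00586) and DESeq2 (0.0411) with the replicate block.

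Among 11 genes of the polarity complexes that position the junction, 2 were higher and 3 were lower, a share near the 44.7% of all tested genes that were called. PARD3 and PARD6B, scaffolds of the PAR complex, were lower with log2 fold changes of -1.15 and -2.02, while PRKCI, the atypical protein kinase C that acts with them, was higher with 0.70 (edgeR adjusted p = 0.00252). The paralogous multi-PDZ scaffolds also differed in opposite directions. MPDZ had 64.0 and 52.9 CPM in LGR5-high and 11.5 and 14.8 CPM in LGR5-negative, and PATJ had 119.9 and 129 CPM in LGR5-high and 181 and 230.2 CPM in LGR5-negative. PRKCZ, not called at an adjusted p of 0.116, was called with the replicate block in edgeR (0.0226) and not in DESeq2 (0.165).

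All 6 genes of claudin partners and surface proteases were called, 3 in each direction, where 44.7% of all tested genes were called in either direction. EPCAM, which binds and stabilises claudins, had 49.0 and 44.2 CPM in LGR5-high and 34.2 and 29.7 CPM in LGR5-negative. The membrane proteases ST14 (matriptase) and PRSS8 (prostasin), which act in the epidermal barrier, had log2 fold changes of -0.74 and -1.35 (edgeR adjusted p = 0.00208 and 5.78e-04). Their inhibitors SPINT1 and SPINT2 had log2 fold changes of 0.62 and 0.42 (edgeR adjusted p = 0.00207 and 0.00869). The call of EPCAM was lost without the LGR5-high library of pig 88R (adjusted p = 0.0848, edgeR) and that of SPINT2 without the LGR5-high library of pig 95R (0.0604).

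**Figure D5:**
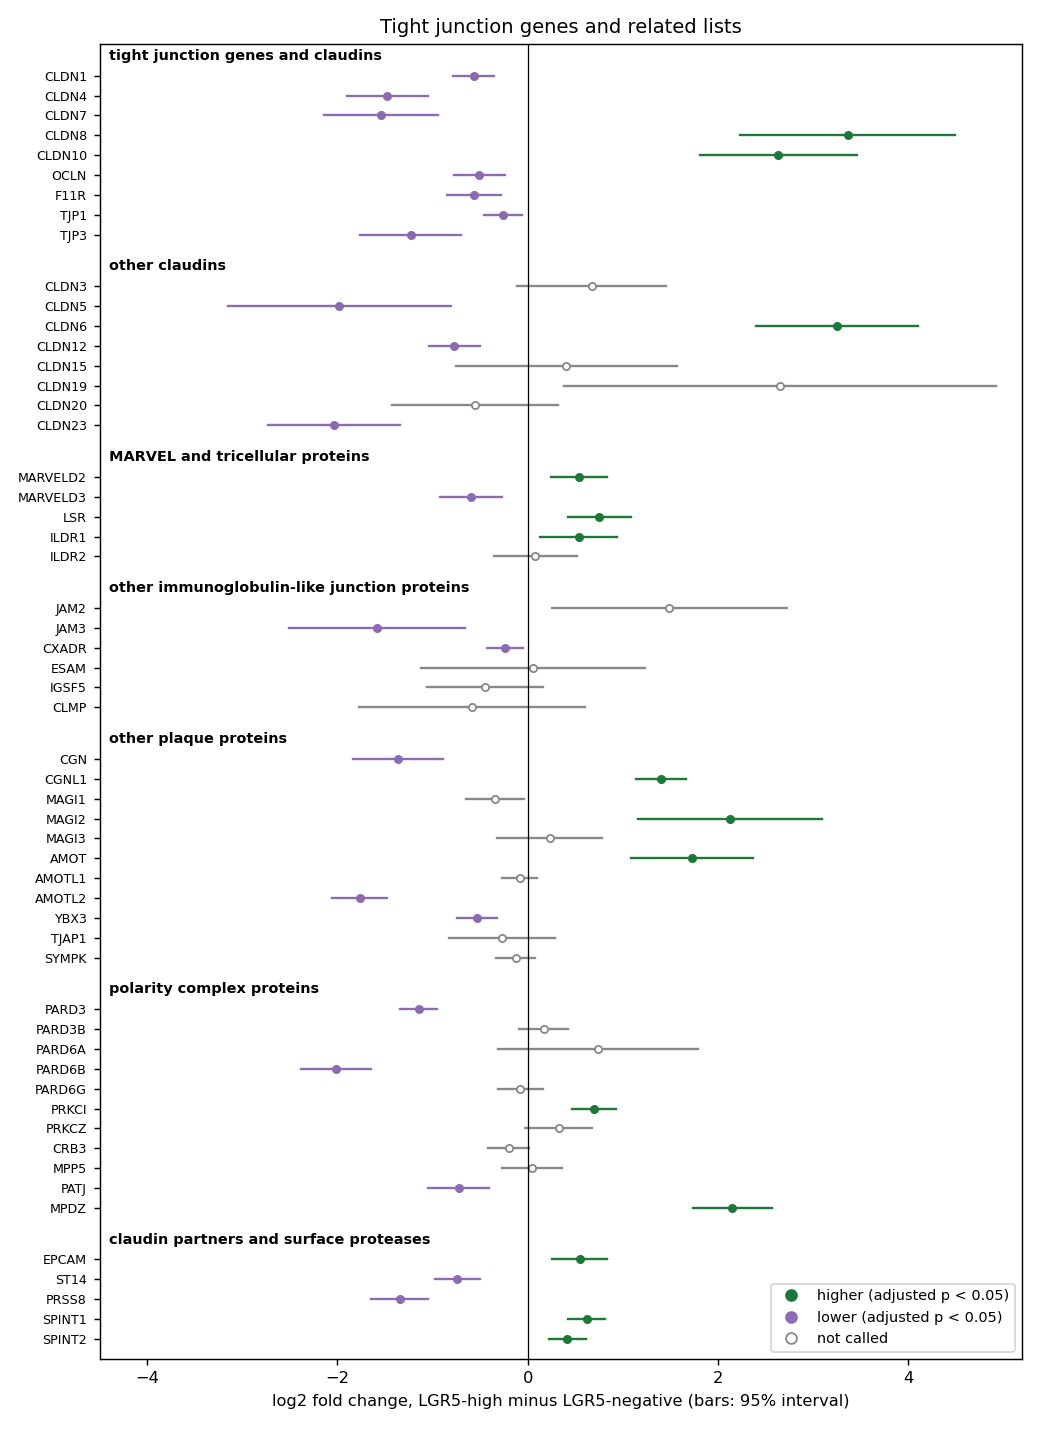
Log2 fold change, LGR5-high minus LGR5-negative, of the 9 tight junction genes and genes of the 6 related lists, with 95% intervals from the edgeR fit. Green points are called higher, purple points lower and open points not called at an adjusted p-value of 0.05.

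Marker lists of follicle and other cells were read beside the junction genes, with 22.7% of all tested genes called higher and 22.0% lower. Of 6 markers of LGR5 hair follicle cells, LGR5 included, 5 were higher and none was lower, with a summed level of 1639 to 1648 CPM in LGR5-high and 122 to 153 CPM in LGR5-negative. Of 8 tested markers of simple glandular epithelium, 5 were higher in LGR5-high and none was lower, with a summed level of 234 to 321 CPM in LGR5-high and 57.7 to 62.0 CPM in LGR5-negative. SLC12A2 and KRT8 gave most of that level, with means of 157 and 81.6 CPM in LGR5-high and 50.6 and 1.56 CPM in LGR5-negative. Within that list FOXI1 had 0 counts in all 4 libraries and KRT18 had 3 to 29 counts. KRT18, FOXA1 and ATP6V1B1 were not called, with log2 fold changes of -0.59, -1.11 and -1.68. Of 5 tested inner root sheath markers, 4 were higher and TGM3 was lower. Their summed level was 938 to 1249 CPM in LGR5-high and 805 to 1096 CPM in LGR5-negative. TGM3 alone gave most of the LGR5-negative sum, with 1023 and 717 CPM there and 84.8 and 54.5 CPM in LGR5-high. Of 2 companion layer markers KRT6A was higher and KRT79 was lower. The part of these cells in the levels of CLDN6, CLDN8 and CLDN10 was not tested. Immune and melanocyte markers were lower in LGR5-high in 4 of 4 and in 4 of 6 tested genes, and none of them was higher. Of 7 fibroblast and dermal papilla markers 1 was higher and 4 were lower, and of 3 tested Schwann cell markers 2 were higher and none was lower, with 58.3 to 78.1 CPM in LGR5-high and 3.12 to 4.99 CPM in LGR5-negative.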

How the data were processed

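RNA of sorted LGR5-high and LGR5-negative epidermal cells from 2 pigs was sequenced as poly(A) libraries. For the 4 libraries, unnormalized raw counts by gene symbol were deposited. The submitters' processing notes name Trimmomatic 0.36, STAR 2.5.2b and featureCounts of Subread 1.5.2. The genome build, annotation and strand setting are not given in the sources used here. All 29837 symbols matched RefSeq Sscrofa11.1, used for names and gene overlaps only. The entry without a name, 0.360% to 0.626% of counts, was left out.

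The test was run in edgeR 4.0.16 under R 4.3.3, after filterByExpr (minimum count 10, minimum total 15) and TMM scaling, as a two-sided quasi-likelihood test of population alone, with Benjamini-Hochberg adjustment over 15980 genes. Fitted log2 fold changes used a prior count of 0.125 and those within a pig a prior count of 2. Standard errors are the log2 fold change over the square root of the F statistic. Depth sets a floor of 3 counts, which covers counting error only. Libraries were paired by the pig they came from, and after removal of each population's mean, libraries of 1 pig correlated at 0.370 over genes. The alternatives were 3 other scalings, 2 other filters, the pig as a replicate block, DESeq2 1.42.0 with and without it, Student's t-test on log2 values (pseudocount 1 CPM) (the test the study's methods name), each library left out and a prior count of 2. The edgeR and DESeq2 fits were tested on simulated data. Plots were drawn with matplotlib 3.10.9.

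The 9 genes and all lists were chosen with earlier results of these data known. In each list the text names up to 4 called genes with the largest change and some or all of those not called. Among the latter are JAM2, MAGI1 and PRKCZ, which edgeR called with the replicate block. CGN, YBX3, PRKCI, EPCAM, SPINT2 and the ratios between genes were chosen after their values were seen. Planned protein features, promoter motifs and shares per coding length were not analysed here. Counts over the lists include 2 genes whose own values are not reported here.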

Additional observations from a re-analysis of the deposited data

How the results depend on the processing

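None of the 9 genes changed sign under the 13 alternatives of scaling, filter, test, pairing and left-out library. When edgeR took the pig as replicate block, the same 9 genes were called, 2 higher and 7 lower, beside 4562 and 4342 of all genes, and the adjusted p-value was between 2.61e-09 for CLDN8 and 0.0220 for TJP1. The block added CLDN19, JAM2, MAGI1 and PRKCZ to the called genes of the other lists, which went from 12 to 15 higher and from 16 to 17 lower, while DESeq2 with the same block gave 12 higher and 13 lower and of these 4 called MAGI1 alone. CLDN8 and CLDN10 were called under 12 of 13 alternatives each, CLDN7 under all 13, OCLN under 9, F11R under 10 and TJP1 under 3. With library size only, 4 genes of the 9 were lower, since OCLN, F11R and TJP1 lost their calls, and 5473 of all genes were higher and 2328 lower. Student's t-test called 0 of the 9 genes higher and 1 lower, though 8 of the 9 had an unadjusted p-value under 0.05, 6 of them lower. It called 544 and 502 of all genes, and 1 higher and 3 lower of the other lists, and the cause was not tested. Leaving out each library in turn gave 2 higher and between 4 and 6 lower genes of the 9, with 4 without the LGR5-high library of pig 95R. All genes then ranged from 2279 to 3169 higher and from 2139 to 3004 lower, both lowest without that library, with 2340 higher without the LGR5-high library of pig 88R, and the other lists from 10 to 13 higher and from 11 to 13 lower. With 2 libraries in each population, a left-out library leaves 1, which is assumed to vary like the others. Shares per coding length were not run. Depth limits CLDN7, CLDN8 and CLDN10 most among the 9, with as few as 47, 19 and 21 counts in a library.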

Other observations

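Ratios of counts within a library do not depend on the scaling between libraries, and the following pairs were chosen after their values were seen. The ratio of CGN to CGNL1 was 0.437 and 0.416 in LGR5-high, pig 88R first, and 3.33 and 2.44 in LGR5-negative. That of OCLN to MARVELD2, the genes of occludin and tricellulin, was 1.01 and 1.17 in LGR5-high and 2.39 and 2.09 in LGR5-negative. That of CLDN7 to its partner EPCAM was 0.0279 and 0.0349 in LGR5-high and 0.122 and 0.145 in LGR5-negative. In each pair the first gene was lower and the second higher in LGR5-high, each without overlap. The populations therefore could not overlap in these 3 ratios, which add no separate result. With 2 libraries against 2, an exact permutation test cannot go below a two-sided p of 0.333.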
